A study of Mus musculus with 46 samples.

Results

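The genes described here are the MLX branch of the extended MYC network and its glucose-responsive targets. They are 7 genes chosen by name, with earlier results of these data known: Mlx, its partners Mlxip and Mlxipl, and the target genes Txnip, Arrdc4, Arrdc3 and Klf10. All 7 were listed among the 14360 genes measured in the cell lines and among the 14056 genes measured in the Max addback experiment, of 14888 genes listed in either. RNA sequencing of cultured cells from thyroid tumours of mice was used to ask how loss of MAX alters transcription through the MYC network.

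MLX is a basic helix-loop-helix leucine zipper protein that, like MAX, binds DNA as a dimer. Its activating partners are MondoA, encoded by Mlxip, and ChREBP, encoded by Mlxipl, which enter the nucleus when glucose 6-phosphate accumulates. MLX also pairs with MNT, MXD1 and MXD4, repressors that otherwise pair with MAX, so the MLX and MAX branches share partners and E-box DNA motifs. MondoA and ChREBP with MLX bind carbohydrate response elements, which are pairs of E-box-like motifs set 5 bases apart. Txnip is the best known target; its product binds thioredoxin and lowers glucose uptake. Arrdc4 and Arrdc3 encode alpha-arrestins related to TXNIP, and Klf10 encodes a zinc-finger repressor that is induced by glucose in liver.

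Promoter sequences are printed for the genes with a match to a motif of the kind that this family reads. The windows of Arrdc3 and Mlxip held no match. RefSeq promoter windows on GRCm38.p6, from 250 bases before to 50 bases after a start site, were given for 6 of the 7 genes, and Klf10 was the exception. Capitals mark a CACGTG E-box or the 2 CACGAG motifs of the Txnip promoter, and each sequence is written 5′ to 3′ on the strand of the gene.
Txnip, chr3:96557852-96557908, plus strand: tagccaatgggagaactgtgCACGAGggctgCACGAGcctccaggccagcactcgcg
Arrdc4, chr7:68749406-68749451, minus strand: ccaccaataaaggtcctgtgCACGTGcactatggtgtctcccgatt
Mlxipl, chr5:135089772-135089817, plus strand: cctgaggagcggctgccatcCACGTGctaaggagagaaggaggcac
Mlx, chr11:101087230-101087275, plus strand: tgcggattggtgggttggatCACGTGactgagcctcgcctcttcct

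The Txnip window held a tandem pair of CACGAG motifs 5 bases apart, beginning 85 bases before the start site. This pattern, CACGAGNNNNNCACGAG on either strand, was found in 1 of 32851 promoter windows, that of Txnip; it was chosen for the search after the Txnip sequence had been seen. The palindromic E-box CACGTG lay 193 bases before the start site of Arrdc4, 98 bases before that of Mlxipl, in 1 of its 2 windows, and 40 bases before that of Mlx. It was found in 2349 of the 32851 windows, or 7.15%. An inverted pair of E-box-like motifs, CANGNGNNNNNCNCNTG, was found in 0.557% of windows and in none of those of these genes. A match describes the letters of the window and does not show binding.

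In the source mice, conditional Rb/p53 or Max/Rb/p53 mutations were recombined in neuroendocrine cells through a tamoxifen-inducible Ascl-CRE background. Libraries of 4 RP lines (Rb/p53 mutant) and 4 RPM lines (Rb/p53/Max mutant) were compared, so the mutations of Rb and p53 are shared by all groups. In a separate experiment RPM cells were transduced with an empty vector (3 libraries) or with a vector expressing Max (Max addback, 3 libraries). By the library names all 6 are of 1 line, that of RPM replicate 2, and nothing in the labels says that they were separate transductions. P-values in that experiment therefore measure the spread between these libraries, which may be technical. All cells were grown in DMEM with fetal bovine serum, and no group differed in glucose supply by the labels. The 32 tumour libraries of the 46 in the series were not analysed here.

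Libraries held 6738614 to 8498396 reads in listed genes, and 3 reads corresponded to 0.353 to 0.458 CPM (counts per library total, scaled by the authors' TMM factor). Max RNA, counted over the whole gene, was 65.2, 44.7, 50.8 and 57.5 CPM in RP lines 1 to 4 and 80.9, 103, 68.9 and 100 CPM in RPM lines 1 to 4. Which exons the mutation removes was not given in the sources used here. This level therefore does not check the deletion. It was 86.3, 83.1 and 96.0 CPM with empty vector and 251, 250 and 220 CPM with addback. The 4 Y-linked genes Ddx3y, Eif2s3y, Kdm5d and Uty summed to 410 to 423 CPM with empty vector and to 0 to 0.257 CPM with addback. An effect of Max and any other difference between the 2 sets of transduced cells therefore cannot be told apart. All 8 C cell and neuroendocrine markers were listed. Their sum ranged from 4338 to 5559 CPM among RP lines and from 3904 to 16335 CPM among RPM lines. With addback 7 of the 8 were called higher, where 27.7% of all genes were. Calca was not called, with a log2 change of -0.13, and averaged 2788 CPM with empty vector and 2560 CPM with addback. The sum of all 8 was 5315 to 6104 CPM with addback against 4055 to 4318 CPM with empty vector, and Calca was its largest single part. In such bulk RNA, fewer cells of a type and less RNA per cell cannot be told apart. Follicular markers summed to at most 8.88 CPM, with Tg and Tshr not listed, and fibroblast markers summed to 17.8 to 33.3 CPM among RP and 3.37 to 19.7 CPM among RPM lines. The part of these marker shifts in the results below was not tested. Tumour libraries with an Rb/p53 mutant label carry the same animal identifier as RPM replicate 1, so counts are also given without that line. Addback replicate 3 stood apart from the other addback libraries, with a chi-square per degree of freedom of 15.2 and 12.9 against them, where the other pairs within that experiment gave 1.72 to 1.86.

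In the comparison of RPM with RP lines, 0 of the 7 genes were called by limma (Benjamini-Hochberg adjusted p under 0.05 over all genes), where 0.334% of all genes were. An unadjusted p under 0.05 was reached by 3 of the 7, Txnip, Arrdc4 and Arrdc3, against 15.9% of all genes, and all 3 had higher means in the RPM lines. The edgeR quasi-likelihood test on recovered reads called 0 of the 7, and only 3 of all 14360 genes (0.0209%), so its count of 0 says little about the members. DESeq2 called 1, Arrdc3, against 4.8% of the genes it tested. The authors' deposited table also called 1, Arrdc3, against 4.19% of all genes. RP and RPM values did not overlap for 1 of the 7, again Arrdc3, against 9.37% of all genes. The median log2 difference over the 7 genes was 0.29, and over all genes it was -0.0052. Without RPM replicate 1 the count called by limma was also 0, where 1.82% of all genes were called.

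With Max addback all 7 genes were called by limma, 3 higher (Mlxipl, Arrdc3 and Txnip) and 4 lower (Arrdc4, Klf10, Mlxip and Mlx). Most genes differed in this experiment: 53.2% of all genes were called, 27.7% higher and 25.5% lower, and the count of 7 is to be read against that background. Addback and empty vector values did not overlap for 6 of the 7 genes, Mlx being the exception, against 61.9% of all genes. The authors' deposited table called 3 of the 7, Mlxipl and Arrdc3 higher and Arrdc4 lower, against 32% of all genes. It did not call Mlx, Mlxip, Txnip and Klf10, although its FDR for them was 0.00026 to 0.00779. Their deposited log2 fold changes were -0.35, -0.37, 0.39 and -0.45. The deposited call therefore did not rest on FDR alone, and its count is not like that of limma. The 2 comparisons share no library, although by the library names the addback experiment used the cells of 1 of the 4 RPM lines.

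Mlx (ENSMUSG00000017801.15, chr11:101087277-101092207, plus strand) encodes the shared partner of the branch. Its level in RP lines 1 to 4 was 44.6, 61.2, 45.7 and 46.5 CPM, and in RPM lines 1 to 4 it was 76.8, 62.2, 47.5 and 57.3 CPM. RP replicate 2 was high for its group and RPM replicate 3 low for its group, and the groups overlapped. The log2 difference was 0.29 (SE 0.18, adjusted p = 0.456), and without RPM replicate 1 it was 0.17. With empty vector the level was 64.9, 68.3 and 58.0 CPM, and with addback it was 44.5, 45.6 and 60.5 CPM. Addback replicates 1 and 2 lay below every empty vector library, and replicate 3 lay above empty vector replicate 3. Mlx was called lower with addback, with a log2 change of -0.35 (SE 0.12, adjusted p = 0.0371), and the call was lost without any 1 of empty vector replicates 1 and 2 and addback replicates 1 and 2 (adjusted p of 0.109, 0.135, 0.116 and 0.126). Without the outlying addback replicate 3 the change was -0.49. The gene overlaps Psmc3ip on the opposite strand, which averaged 33.2 CPM with empty vector and 29.9 CPM with addback, and strand-specific counting was not stated in the labels.

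Mlxip (ENSMUSG00000038342.15, chr5:123394798-123457932, plus strand) encodes MondoA, the partner through which most cell types are known to sense glucose. It ran at 75.7, 71.1, 61.3 and 51.3 CPM in the RP lines and at 78.9, 68.8, 76.1 and 69.5 CPM in the RPM lines. The groups overlapped, and the log2 difference was 0.19 (SE 0.14, adjusted p = 0.545). Without RP replicate 4 it was 0.08. The 4 RPM lines were close to each other: the SD of their log2 levels was 0.10, and 5.64% of genes at 10 CPM or more had a smaller one. With empty vector Mlxip was 84.5, 84.5 and 83.1 CPM, and with addback it was 72.2, 70.1 and 52.8 CPM. All 3 addback libraries lay below all 3 empty vector libraries, and replicate 3 was lowest. Mlxip was called lower, at -0.38 on the log2 scale (SE 0.11, adjusted p = 0.019). The call was lost without any 1 of the empty vector libraries (adjusted p of 0.0584 to 0.063), and without addback replicate 3 the change was -0.24 and called.

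Mlxipl (ENSMUSG00000005373.13, chr5:135089890-135138382, plus strand) encodes ChREBP, best known from liver, fat and pancreatic islets. It was the member with the largest change in the addback experiment: 21.7, 20.03 and 24.1 CPM with empty vector and 50.2, 52.8 and 51.1 CPM with addback. Each addback library held more than every empty vector library. The log2 change was 1.19 (SE 0.10, 95% confidence interval 0.98 to 1.41, adjusted p = 4.79e-06). In RP lines Mlxipl was 65.0, 53.1, 74.0 and 55.9 CPM, and in RPM lines it was 61.3, 53.9, 32.2 and 28.2 CPM. RPM replicates 1 and 2 lay within the range of the RP lines, while RPM replicates 3 and 4 lay below it. The log2 difference between the lines was -0.55 (SE 0.26, 95% confidence interval -1.15 to 0.04, adjusted p = 0.344), and it was not called.

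Txnip (ENSMUSG00000038393.14, chr3:96557957-96561883, plus strand) was 193, 265, 279 and 202 CPM in the RP lines. In the RPM lines it was 250, 350, 531 and 317 CPM. The groups overlapped, since RPM replicate 1 lay below RP replicates 2 and 3, and RPM replicate 3 was the highest library. The log2 difference was 0.59 (SE 0.24, adjusted p = 0.293), and without RPM replicate 3 it was 0.38. Txnip was 295, 296 and 287 CPM with empty vector and 388, 368 and 397 CPM with addback. The 2 sets did not overlap, and the gene was called higher with addback by 0.39 on the log2 scale (SE 0.07, adjusted p = 0.00122). Its antisense gene Gm15441 averaged 0.937 CPM with empty vector and 1.61 CPM with addback, far below Txnip.

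Arrdc4 (ENSMUSG00000042659.15, chr7:68736995-68749241, minus strand), the alpha-arrestin that shares glucose induction with Txnip, was 14.8, 23.8, 15.8 and 16.4 CPM in the RP lines. Its levels in the RPM lines were 20.3, 26.8, 45.1 and 34.4 CPM. RPM replicate 1 lay below RP replicate 2, so the groups overlapped. The log2 difference was 0.77 (SE 0.27, adjusted p = 0.251), and without RPM replicate 1 it was 0.95 (adjusted p = 0.104). In the addback experiment Arrdc4 went the other way from Txnip: it was 47.6, 49.6 and 49.5 CPM with empty vector and 27.2, 22.8 and 23.9 CPM with addback. Every addback library lay below every empty vector library. The log2 change was -0.96 (SE 0.10, 95% confidence interval -1.18 to -0.75, adjusted p = 1.98e-05), the second largest of the 7 genes in size.

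Arrdc3 (ENSMUSG00000074794.10, chr13:80883384-80896042, plus strand) encodes an alpha-arrestin known for the sorting of membrane receptors. It was 97.1, 98.6, 68.8 and 102 CPM in the RP lines and 126, 131, 298 and 159 CPM in the RPM lines. Every RPM line lay above every RP line, and RPM replicate 3 was far above the rest. The log2 difference of 0.88 (SE 0.28) was not called by limma (adjusted p = 0.212), and it was 0.60 without RPM replicate 3. DESeq2 gave an adjusted p of 0.048, and the authors' deposited table gave a log2 fold change of 0.96 with an FDR of 0.0289. With empty vector Arrdc3 was 85.0, 81.0 and 77.4 CPM, and with addback it was 152, 152 and 134 CPM. The sets did not overlap, and the log2 change was 0.84 (SE 0.08, adjusted p = 1.75e-05).

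Klf10 (ENSMUSG00000037465.10, chr15:38291463-38300706, minus strand) showed the smallest difference between the lines. It was 63.3, 70.8, 79.7 and 82.2 CPM in the RP lines and 59.0, 85.3, 95.5 and 63.4 CPM in the RPM lines, with the RP values inside the RPM range. The log2 difference was 0.01 (SE 0.18, 95% confidence interval -0.40 to 0.42, adjusted p = 0.98), an interval that does not exclude changes of that size in either direction. With empty vector it was 119, 113 and 125 CPM, and with addback it was 87.2, 85.4 and 88.9 CPM. The sets did not overlap, and Klf10 was called lower by limma, with a log2 change of -0.44 (SE 0.07, adjusted p = 0.000595).

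**Figure D1:**
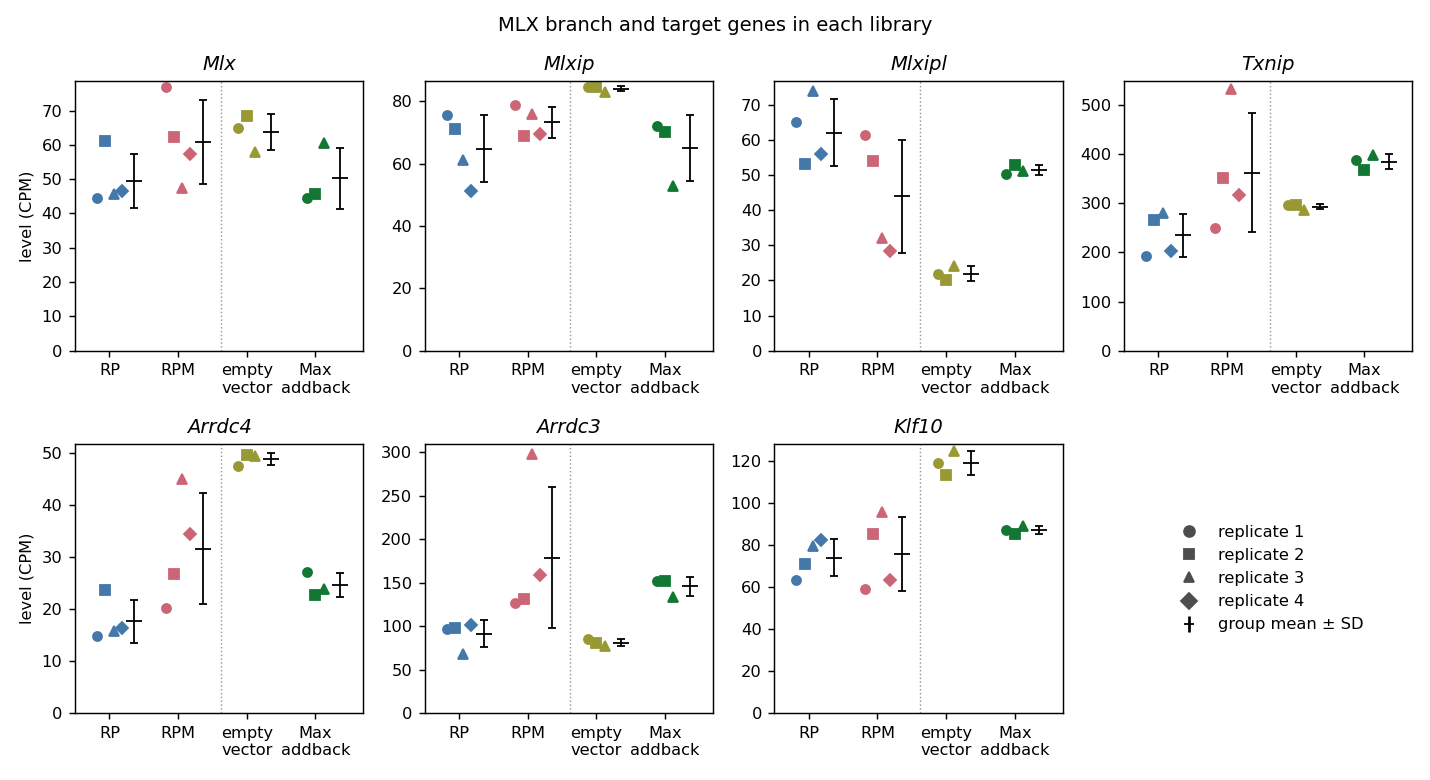
Level of each of the 7 genes in every library, in CPM on axes that start at 0; symbols are replicates, the black marks are group means with SD, and the dotted line separates the 2 tables, which were normalised apart. Arrdc3 is the gene for which all 4 RPM lines lie above all 4 RP lines, and Mlxipl rises from 20.03 to 24.1 CPM with empty vector to 50.2 to 52.8 CPM with addback.

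The targets did not all change in the same direction with addback. The alpha-arrestin genes Txnip and Arrdc3 were called higher with addback and Arrdc4 was called lower, and Klf10 was lower too. Of all genes 27.7% were called higher and 25.5% lower there, so calls in both directions are common in that experiment. In the RPM lines the means of Txnip, Arrdc4 and Arrdc3 were all above those of the RP lines, with none called by limma. Side by side, Arrdc4 differed by 0.77 in RPM against RP lines and by -0.96 with addback, and Mlxipl by -0.55 and 1.19. Txnip differed by 0.59 and 0.39, and Arrdc3 by 0.88 and 0.84, with the higher level in RPM lines and in addback cells. Whether a gene's changes in the 2 comparisons differ was not tested.

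**Figure D2:**
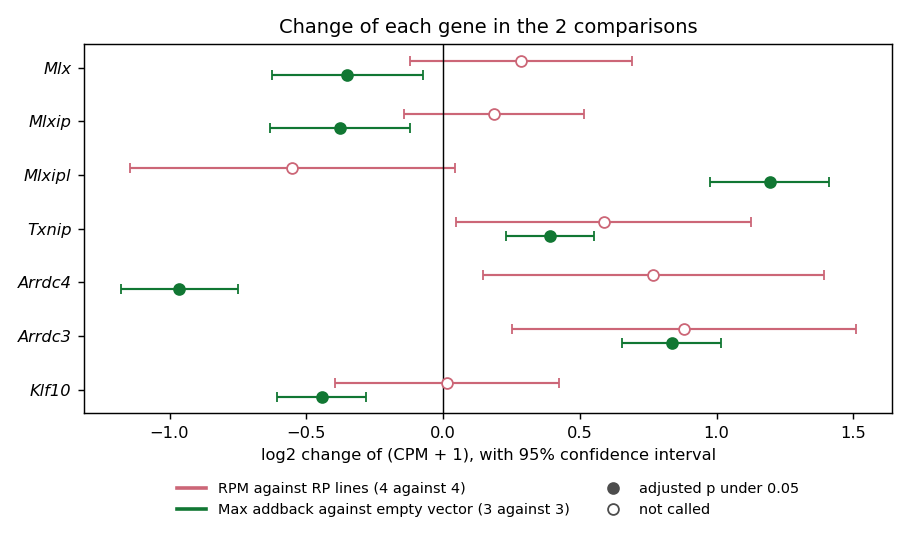
Log2 change of (CPM + 1) of each gene in RPM against RP lines (red, 4 against 4 libraries) and in Max addback against empty vector (green, 3 against 3), with 95% confidence intervals from limma; filled points have an adjusted p under 0.05. All 7 green points are filled, 3 to the right of 0 and 4 to the left, and none of the red points is filled.

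Differences among the RPM lines were wider than those of the median gene for 5 of the 7 genes. The SD of log2 levels over the 4 RPM lines was 0.57 for Arrdc3, 0.53 for Mlxipl, 0.48 for Arrdc4, 0.45 for Txnip and 0.33 for Klf10, and the median over genes at 10 CPM or more was 0.29. In the RP lines the 7 genes had SDs of 0.17 to 0.29, around the median of 0.26. RPM replicate 3 held the highest Txnip, Arrdc4, Arrdc3 and Klf10 of the 4 RPM lines and the lowest Mlx. It was also the RPM line with the highest Xist, at 1958 CPM against 0.383 to 0.748 CPM in the others. It held 0 reads of the 4 Y-linked genes, unlike the other RPM lines. The part of this difference in these levels was not tested. RPM replicate 1 held the lowest Txnip, Arrdc4, Arrdc3 and Klf10, the highest Mlx and Mlxip, and the highest Mlxipl. In the addback libraries Mlx and Mlxip had SDs of 0.24 and 0.25 against a median of 0.14, with replicate 3 apart from the other two.

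Levels of different genes were compared per gene length, in RPKM. Txnip was the most abundant of the 7 in each of the 14 libraries, at 61.8 to 170 RPKM, and only 0.801 to 4.18% of listed genes lay above it. Mlx came next or after one other gene, at 22.3 to 38.4 RPKM. Klf10 ran at 14.1 to 29.8 RPKM and Arrdc3 at 10.97 to 47.6 RPKM. The partner genes ran at lower levels than Mlx, with Mlxip at 6.17 to 10.2 RPKM and Mlxipl at 3.62 to 13.4 RPKM, and Arrdc4 ran at 3.66 to 12.3 RPKM. Per gene length, RNA of Mlx thus exceeded that of either partner in every library.

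The order of the 2 partners differed between libraries. The ratio of Mlxip to Mlxipl RPKM was 0.775, 0.889, 0.551 and 0.611 in RP lines 1 to 4, so ChREBP RNA exceeded MondoA RNA per gene length in all of them. Which side of 1 a library falls on depends on the lengths used, 8326 bp for Mlxip and 5538 bp for Mlxipl. It was 0.856, 0.850, 1.57 and 1.64 in RPM lines 1 to 4, with replicates 3 and 4 on the other side of 1. With empty vector it was 2.59, 2.81 and 2.29, and with addback it was 0.956, 0.883 and 0.687. This ratio was chosen after the values were seen and was not tested.

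**Figure D3:**
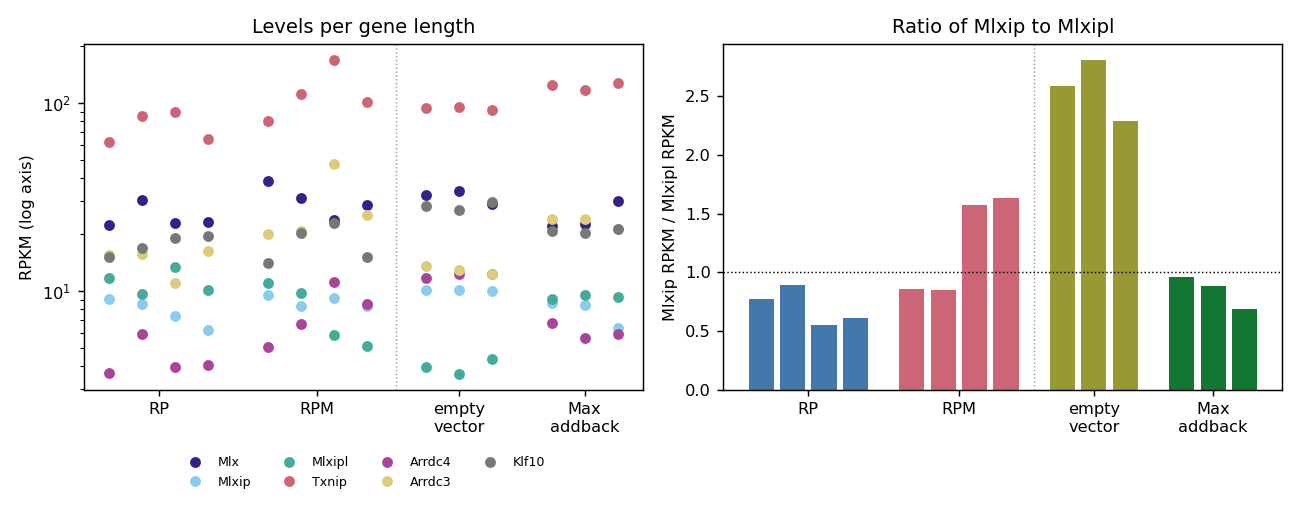
Left, RPKM of the 7 genes in each of the 14 libraries on a log axis, where Txnip lies highest in each library. Right, the ratio of Mlxip to Mlxipl RPKM per library with a dotted line at 1, where the bars of the 3 empty vector libraries reach 2.29 to 2.81 and those of the 3 addback libraries 0.687 to 0.956; the dotted vertical lines separate the tables.

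The line named in the addback libraries, RPM replicate 2, was also sequenced without a vector. Its 4 Y-linked genes summed to 275 CPM, as against 410 to 423 CPM with empty vector and 0 to 0.257 CPM with addback, so whether the addback cells come from this line is in doubt. Xist was 1.14 to 1.86 CPM with empty vector, 0.386 to 5.47 CPM with addback and 0.748 CPM in the line without a vector. For 6 of the 7 genes its log2 level lay nearer to the addback mean than to the empty vector mean, as it did for 63.6% of the 7192 shared genes called with addback and for 59.2% of all 13528 shared genes. Its Mlxipl lay 1.26 above the empty vector mean and 0.07 above the addback mean. Its Arrdc4 differed by -0.84 from the former and by 0.12 from the latter. Its Arrdc3 differed by 0.69 and -0.15, and Mlx was the exception, at -0.03 and 0.32. These levels come from 2 tables that were normalised apart and from 1 library, so they are a description.

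Genes with the pattern most like Txnip over the 8 lines were found by Pearson correlation of log2(CPM + 1) among 10437 genes with a mean of 10 CPM or more. The highest were Cyp4f13 (r = 0.976), Ubxn10 (0.949), Atg14 (0.944), Zfp39 (0.936) and Ankzf1 (0.936). The lowest were Zbtb45 (r = -0.949), Cmpk1 (-0.948), Fiz1 (-0.947), Ctbp1 (-0.947) and Chaf1b (-0.945). Arrdc4 followed Txnip at r = 0.894, Arrdc3 at 0.783 and Klf10 at 0.588, while Mlxip stood at 0.345, Mlx at 0.067 and Mlxipl at -0.650. For Arrdc4 the highest were Mtrf1 (0.987), Hmgn3 (0.978) and Slc6a14 (0.962), and the lowest were Tet3 (-0.982), Far1 (-0.978) and Trim28 (-0.971). Arrdc4 ran against Mlxipl at r = -0.890. These values describe 8 libraries, which share their 2 genotypes, and the extremes of 10437 genes are high by selection. Of the 5 genes most like Txnip, 1 was called higher with addback, where 27.7% of all genes were. It was Ubxn10, with a log2 change of 0.56 (adjusted p = 0.0115).

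The other genes of the pathway were taken from lists of 68 genes, of which 63 were measured in the lines and 61 in the addback experiment. In RPM against RP lines 2 of the 63 were called higher and 0 lower, or 3.17% against 0.334% of all genes. An unadjusted p under 0.05 was reached by 13, near the background of 15.9% of all genes. Both calls were repressor genes. Mnt, which encodes a repressor that pairs with MAX and with MLX, was 59.7, 56.9, 54.5 and 52.3 CPM in RP lines and 119, 96.4, 125 and 108 CPM in RPM lines. The groups did not overlap. The difference was 0.99 on the log2 scale (SE 0.12, adjusted p = 0.0325). Klf9, a relative of Klf10, averaged 17.3 ± 2.14 CPM in the RP lines and 42.7 ± 5.55 CPM in the RPM lines (SD, n = 4 each), and rose by 1.26 on the log2 scale (SE 0.17, adjusted p = 0.0338). Klf13, of the same list, differed in the other direction, by -1.51, and was not called (adjusted p = 0.118 by limma). It averaged 162 CPM in the RP and 60.7 CPM in the RPM lines without overlap, and the median of that list was -0.38. Both calls were lost with edgeR (adjusted p = 0.0563 for each). They were also lost without any 1 of the RP lines or of RPM replicates 3 and 4, at adjusted p of 0.0569 to 0.13, and Klf9 also without RPM replicate 2. Without RPM replicate 1 the count was 6 of the listed genes, 3 higher and 3 lower, where 1.82% of all genes were called. DESeq2 also called 6, 3 higher and 3 lower, where it called 4.8% of the genes it tested.

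The remaining lists held no call by limma over all 8 lines. None of the 16 measured genes of glucose uptake and hexose phosphorylation was called, with a median log2 difference of -0.15. Slc2a3, a neuronal glucose transporter gene, ran at 0.12, 0.361, 0.366 and 4.71 CPM among RP and at 11.1, 20.1, 30.9 and 12.6 CPM among RPM lines. Its groups did not overlap, and the log2 difference of 3.30 had an adjusted p of 0.0609 by limma, 0.00543 by DESeq2 and 0.0401 without RPM replicate 1; it was also called without RP replicate 4 (adjusted p = 0.024). In 3 of the RP lines it was at 3 reads or fewer, so the size of this difference depends on the pseudocount. Slc2a4, the insulin-responsive transporter gene, differed by -1.33 (adjusted p = 0.261), and by -1.79 without RPM replicate 1, where it was called (adjusted p = 0.0447). None of the 21 textbook ChREBP target genes, which are not all enzyme genes, was called. Fgf21 differed by -1.46 (adjusted p = 0.41) and Rgs16 by 1.04 (adjusted p = 0.53). Without RP replicate 1 these differences were -0.72 and 0.38. Among the other alpha-arrestins, Arrdc1 averaged 46.6 CPM among RP and 19.4 CPM among RPM lines without overlap, at a log2 difference of -1.23 (adjusted p = 0.139). Arrdc1 was called by DESeq2 (adjusted p = 0.0075) and, without RPM replicate 1, by limma (-1.43, adjusted p = 0.0452). Arrdc2 differed by -0.43 (adjusted p = 0.518), and by -0.21 without RPM replicate 4. None of the 5 thioredoxin system genes was called, with Txnrd3 at 0.56, or 0.14 without RPM replicate 2 and 0.84 without RPM replicate 3, and Txn1 at -0.22, or -0.40 without RPM replicate 1 and -0.10 without RPM replicate 3. None of the 11 regulators of MondoA and ChREBP was called by limma. Ywhaz differed by -0.51 and was called by DESeq2 (adjusted p = 0.0488), and Sfn differed by -0.28, with values of -0.73 to 0.0264 as libraries were left out.

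With addback 16 of the 61 listed genes were called higher and 18 lower, or 55.7%, near the 53.2% of all genes. Each list with more than 1 call held calls in both directions. Mnt was called lower, with a log2 change of -0.63 (adjusted p = 0.000271), from 90.6, 78.7 and 97.6 CPM with empty vector to 57.3, 56.3 and 57.4 CPM. It was the only call among the 3 repressor genes that pair with MLX. Among the KLF genes Klf13 rose by 2.65 on the log2 scale and Klf9 changed by -1.001, and the other 3 were not called. Klf13 averaged 5.06 ± 1.02 CPM with empty vector and 36.9 ± 4.66 CPM with addback (SD, n = 3 each).

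Of the 14 measured genes of glucose uptake and hexose phosphorylation 5 were called higher and 5 lower with addback, with a median of 0.07. Pfkfb4, which sets fructose 2,6-bisphosphate, rose by 1.27 on the log2 scale (SE 0.12, adjusted p = 1.21e-05), and Slc2a4 changed by -1.11 (adjusted p = 0.00113). Of the 21 ChREBP target genes 6 were called higher and 7 lower, with a median of -0.12 against -0.0019 over all genes. Gpd1, of glycerol phosphate synthesis, rose by 2.01 and averaged 3.03 ± 1.14 CPM with empty vector and 14.8 ± 1.04 CPM with addback (SD, n = 3 each). Elovl6, a fatty acid elongase gene, rose by 1.798. Dgat2, of triglyceride synthesis, was called lower, with a change of -1.45, and averaged 65.6 ± 1.40 CPM with empty vector and 23.5 ± 3.80 CPM with addback (SD, n = 3 each).

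In the thioredoxin system Txnrd3 was called lower with addback, with a log2 change of -1.38, and Txnrd2 higher, with 0.43 (adjusted p = 0.0461), a call that DESeq2 did not make (adjusted p = 0.0783); the other 3 genes were not called. The Txnrd2 call was also lost without addback replicate 3 (adjusted p = 0.133) and without any 1 of the empty vector libraries (adjusted p of 0.0554 to 0.129). Neither Arrdc1 nor Arrdc2 was called, at 0.04 and 0.02, so the called alpha-arrestin genes were Txnip, Arrdc3 and Arrdc4. Of the 11 regulators 3 were called higher and 3 lower. Ywhab, a 14-3-3 gene, rose by 0.50, and Ogt, the O-GlcNAc transferase gene, changed by -0.41 (adjusted p = 0.00732). Sfn, another 14-3-3 gene, rose by 0.63 (adjusted p = 0.0239) at levels of 0.715 to 2.57 CPM, a call lost with DESeq2 (adjusted p = 0.0892) and without empty vector replicate 1 or 2 or addback replicate 2 (adjusted p of 0.095, 0.0689 and 0.0713).

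**Figure D4:**
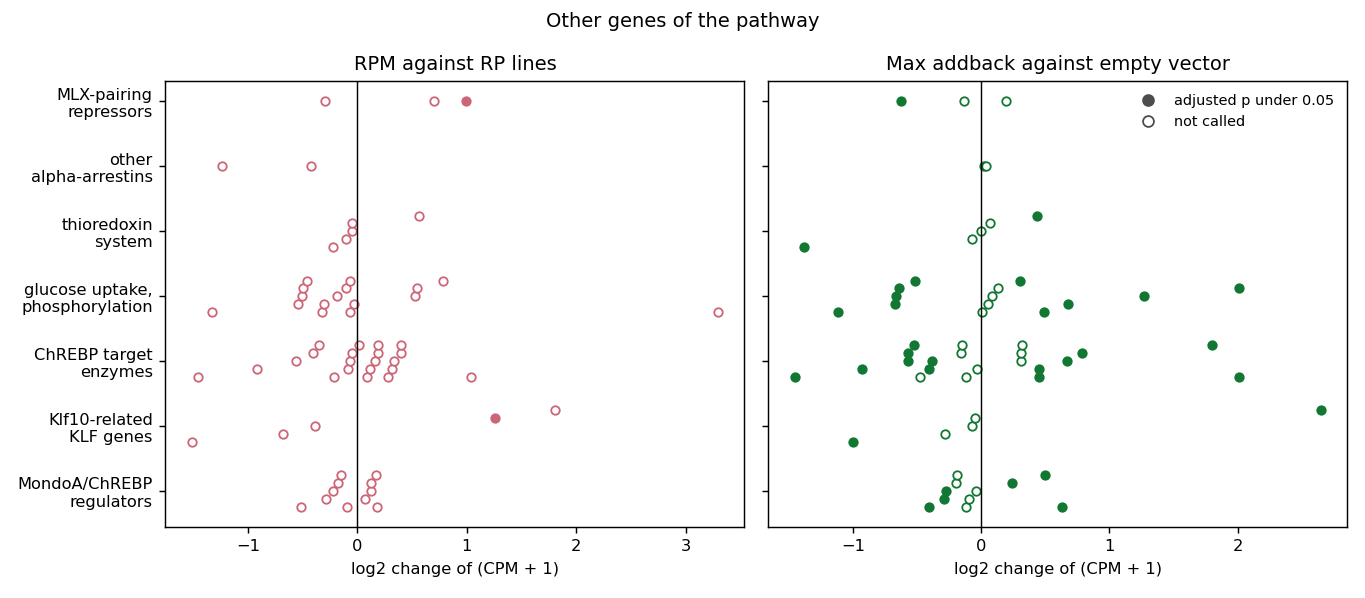
Log2 change of (CPM + 1) of each measured gene of the 7 pathway lists in RPM against RP lines (left) and in Max addback against empty vector (right); filled points have an adjusted p under 0.05 by limma, and vertical offsets within a list only keep points apart. On the left 2 points are filled, Mnt at 0.99 and Klf9 at 1.26, and on the right 34 are filled, on both sides of 0.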

How the data were processed

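The members and gene lists were chosen with earlier results of these data known. Per the submitters' processing notes, bcl2fastq 1.8.4, TopHat2 2.1.0, HTSeq 0.6.1, edgeR and the build mm10 were used (annotation release and gene filter: not given in the sources used here). Values deposited by the authors are a CPM signal scaled by TMM, per the file headers, in 2 tables normalised apart, and RPKM scaled to gene length. The authors' log2 fold changes, p-values with FDR and call score (-1, 0 or 1) stand beside these values, per the file headers. Dividing CPM by the value of 1 read gave whole numbers (tolerance 0.01) for 100% of values.

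Each comparison was fitted with limma-trend (limma 3.58.1, R 4.3.3) on log2(CPM + 1) of all listed genes in its own libraries, two-sided, Benjamini-Hochberg adjusted p under 0.05; this scale understates changes of low genes. Count tests on recovered reads used edgeR 4.0.16 and DESeq2 1.42.0. Other alternatives were pseudocounts of 0.5 and 2, a mean CPM of at least 1, library size and DESeq2 scaling, a replicate block and leaving out each library. Coordinates are from GENCODE vM21 on GRCm38, which mm10 names. Floors and depth cover counting error only. All members are named; of each list, up to 3 called genes with the largest change are named per comparison, or up to 2 where none was called; 1 gene that this rule names is not reported here. Klf13 in the lines is given outside this rule. Only the limma fit was tried on simulated data, with changes larger than those of any of the members. The edgeR and DESeq2 tests were not tried in this way.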

Additional observations from a re-analysis of the deposited data

Results flagged for a closer look

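In 5 of the 38 groups of 4 libraries that were tested, 1 library stood apart from the other 3 by Dixon's test of its gap over the whole range; chance alone flags about 1 in 20 such groups. Mlx was 61.2 CPM in RP replicate 2 and 44.6 to 46.5 CPM in the other RP lines. Arrdc1 was also highest in RP replicate 2, at 68.7 CPM against 38.3 to 39.7 CPM. That line held Xist at 5042 CPM and Ddx3y at 0 CPM. In the other RP lines Xist was 0.366 to 344 CPM and Ddx3y 35.5 to 66.7 CPM. Arrdc3 was 68.8 CPM in RP replicate 3 and 97.1 to 102 CPM in the other RP lines. Slc2a3 was 4.71 CPM in RP replicate 4 and 0.12 to 0.366 CPM in the others, where 3 reads correspond to 0.353 to 0.366 CPM. Slc2a4 was 4.98 CPM in RPM replicate 1 and 0.473 to 0.748 CPM in the other RPM lines; RPM replicate 1 shares its animal identifier with tumours of the other genotype label.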

How the results depend on the processing

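Of 112 alternative values of the 7 genes in the lines 107 kept direction and side of the threshold, as did 90 of 98 in the addback experiment. The count of the 7 genes called in the lines was 0, and 1 with DESeq2 (Arrdc3); it was 0 to 0 with libraries left out in turn. With addback it was 7, and 5 to 7 with libraries left out; library size scaling lost Mlx (adjusted p = 0.106). The count of other pathway genes called in the lines was 2, with 0 by edgeR, 6 by DESeq2, 0 with the replicate block and 0 to 6 with libraries left out. In the addback experiment it was 34, and 27 to 42 with libraries left out. With libraries left out in turn, 4 changes crossed 0 and none was called: Klf10 (-0.11 to 0.12) and Sfn (-0.73 to 0.0264) in the lines, and Arrdc1 (-0.0728 to 0.10) and Arrdc2 (-0.14 to 0.16) with addback. The values on the other side of 0 were -0.0587, -0.0054, -0.0523 and -0.1063 for Klf10 without RP replicate 1, RP replicate 2, RPM replicate 2 and RPM replicate 3, and 0.0264 for Sfn without RP replicate 2. For Arrdc1 and Arrdc2 they were -0.0104 and -0.1405 without empty vector replicate 2, and -0.0728 and -0.0524 without addback replicate 3. The cause was not tested. Same-numbered libraries correlated in their deviations from group means at 0.402, 0.047, 0.012 and 0.127 in the lines and at 0.032, 0.012 and 0.079 in the addback experiment, so the numbers were not taken as pairs. With the replicate block 0 of the 7 genes were called in the lines and 7 with addback (Mlx at adjusted p = 0.0473), and 32 other pathway genes were called with addback; Mnt and Klf9 in the lines and Txnrd2 with addback were not called under it. At 3 reads, 0.353 to 0.458 CPM, the floor lay close to the lowest levels of Slc2a3, Slc2a4, Sfn and Fgf21.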
